A study of Homo sapiens with 4 samples.

Results

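The genes described here are 39 canonical transcriptional targets of p53, listed by name from the p53 pathway, out of 20163 protein-coding genes of the annotation. All 39 were found by symbol in GENCODE release 44 mapped to hg19. Chromatin immunoprecipitation with an anti-SMAR1 antibody and sequencing (ChIP-seq) had been carried out in untreated HCT116 p53+/+ and HCT116 p53-/- cells, a human colorectal carcinoma line with and without p53. Each cell line had 1 anti-SMAR1 library and 1 list of peaks, and the IgG libraries were not analysed here. Each peak was placed by its centre, as a promoter peak within 1 kb of any TSS of the gene, as an intragenic peak elsewhere in the gene, or as a flanking peak within 50 kb of either end. With a single library for each, differences between HCT116 p53+/+ and HCT116 p53-/- are given without a replicate check, and no test was made.

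SMAR1, the product of the BANP gene, is a nuclear matrix protein that binds matrix attachment regions, interacts with p53 and recruits co-repressors to its target genes. p53 is a transcription factor which is stabilised upon DNA damage and then activates genes for cell cycle arrest, DNA repair and apoptosis, together with genes such as MDM2 that end its own response. Apart from T(C/G) repeat DNA, described by the study as the site bound by SMAR1, BANP is known to bind a short CG-rich palindrome with the core CTCGCGAG at unmethylated CpG island promoters.

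The peaks at TSSs near p53 target genes included the highest-scoring ones, and those with the core CTCGCGAG are shown first. The core was absent from the peaks at BCAS3 near PPM1D, which ranked at 96.43% (HCT116 p53+/+) and 98.09% (HCT116 p53-/-) of their lists. It was also absent from those at TP53I3, at MAD2L1BP near POLH and at RHOBTB2 near TNFRSF10B, and from the shorter HCT116 p53+/+ peak near SFN. The core CTCGCGAG, which reads the same on both strands, was present in the peak at the promoter shared by XPC and LSM3 in both cell lines, in the HCT116 p53-/- peak at the promoter of CCNG1, and in the longer HCT116 p53+/+ peak and the HCT116 p53-/- peak at the promoter of GPATCH3, which lies within 50 kb of SFN. The 30 bases around each are given on the plus strand of hg19, with the core in capitals.
XPC, chr3:14220314-14220343: gctcttgtgttCTCGCGAGaggcgggaaag
CCNG1, chr5:162864538-162864567: aatgcccccttCTCGCGAGaaagccccgcc
SFN flank at GPATCH3, chr1:27226956-27226985: tagaaccaagtCTCGCGAGaacaccgcgag

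The peaks away from protein-coding TSSs were short, and most held an uninterrupted run of TC or TG dinucleotides of at least 12 bp on either strand. The longest run of each such peak, with every other run that reached this length on the strand shown, is given in capitals below for the whole hg19 sequence of the peak. TC and TG could be mixed within a run, and PLK3 carried a further TC run on the strand that is not shown.
CDKN1A flank, HCT116 p53+/+, chr6:36702094-36702165, minus strand: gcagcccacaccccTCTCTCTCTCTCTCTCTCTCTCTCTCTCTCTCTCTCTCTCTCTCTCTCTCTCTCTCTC
PLK2 flank, HCT116 p53+/+, chr5:57796485-57796525, plus strand: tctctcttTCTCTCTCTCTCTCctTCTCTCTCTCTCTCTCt
PLK3 flank, HCT116 p53+/+, chr1:45256873-45256940, plus strand: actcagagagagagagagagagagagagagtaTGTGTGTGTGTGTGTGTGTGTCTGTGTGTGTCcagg
CCNG1 flank, HCT116 p53+/+, chr5:162860378-162860423, plus strand: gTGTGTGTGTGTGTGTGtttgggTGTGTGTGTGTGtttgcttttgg
SPATA18 first intron, HCT116 p53+/+, chr4:52928649-52928685, minus strand: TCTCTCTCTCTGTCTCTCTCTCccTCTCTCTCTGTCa
SPATA18 flank, HCT116 p53+/+, chr4:52970781-52970828, minus strand: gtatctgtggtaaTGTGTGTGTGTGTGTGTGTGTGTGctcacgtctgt
XPC flank, HCT116 p53+/+, chr3:14263599-14263642, plus strand: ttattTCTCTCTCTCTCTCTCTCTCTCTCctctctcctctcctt
GDF15 flank, HCT116 p53+/+, chr19:18458219-18458275, plus strand: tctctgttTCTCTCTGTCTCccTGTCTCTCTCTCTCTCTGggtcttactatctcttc
GADD45A outer flank, HCT116 p53-/-, chr1:68103166-68103213, plus strand: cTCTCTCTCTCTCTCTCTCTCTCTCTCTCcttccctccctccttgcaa
GADD45A flank, HCT116 p53-/-, chr1:68119195-68119258, plus strand: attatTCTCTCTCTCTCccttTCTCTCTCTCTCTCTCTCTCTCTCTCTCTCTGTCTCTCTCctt
CYFIP2 intron, HCT116 p53-/-, chr5:156749845-156749943, plus strand: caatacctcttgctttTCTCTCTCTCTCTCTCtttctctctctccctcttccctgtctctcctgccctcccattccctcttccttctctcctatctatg

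There were 5709 peaks in the HCT116 p53+/+ list and 8217 in the HCT116 p53-/- list. The score given to each by MACS grows as the p-value of the peak falls (-10 times its log10) and takes no account of depth, so that a peak was ranked only within its own list. Scores started at 50 in both lists, with medians of 67.86 in HCT116 p53+/+ and 73.93 in HCT116 p53-/-. The peak lists hold no read numbers, and the depth behind a single peak is not known from them. Per the study’s methods more reads were obtained from HCT116 p53-/-, and the part of depth in the longer list was not tested. Because the HCT116 p53-/- list was the longer one, the p53 target genes were read against all protein-coding genes of the same list.

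Few p53 target genes had a SMAR1 peak at their promoter. In HCT116 p53+/+ XPC alone had one, which is 1 of 39 genes (2.56%, 95% Wilson interval 0.454 to 13.2) beside 3.21% of all protein-coding genes. In HCT116 p53-/- these were XPC, CCNG1 and TP53I3, which is 3 of 39 genes (7.69%, 2.65 to 20.3) beside 5.80%. XPC had a promoter peak in both cell lines, 1 of 39 genes (2.56%) beside 2.10% of all protein-coding genes. All of these intervals contained the background share, and such intervals cover counting error only.

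Intragenic peaks were as rare. SPATA18 held one in HCT116 p53+/+ (2.56% of the 39 genes, 0.454 to 13.2, beside 7.98% of all protein-coding genes). TNFRSF10B and CYFIP2 held one each in HCT116 p53-/- (5.13%, 1.42 to 16.9, beside 10.5%). The p53 target genes were also shorter than protein-coding genes in general, with a median length of 18.39 kb against 27.22 kb, and the shares were not adjusted for length.

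Flanking peaks made up most of the rest. Of the 39 genes, 9 had one in HCT116 p53+/+ (23.1%, 12.6 to 38.3, beside 18.4% of all protein-coding genes), and 6 in HCT116 p53-/- (15.4%, 7.25 to 29.7, beside 27.0%). With promoter, intragenic and flanking peaks combined, 9 genes had a peak in HCT116 p53+/+ (23.1%, beside 27.4%) and 10 in HCT116 p53-/- (25.6%, 14.6 to 41.1, beside 38.4%). SFN, CCNG1, XPC and PPM1D had a peak of some kind in both cell lines, 4 of 39 genes (10.3%, 4.06 to 23.6, beside 16.2%). In no class did the interval of the p53 target genes leave out the share of all protein-coding genes, and the plot of shares by place shows this for both cell lines.

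**Figure D1:**
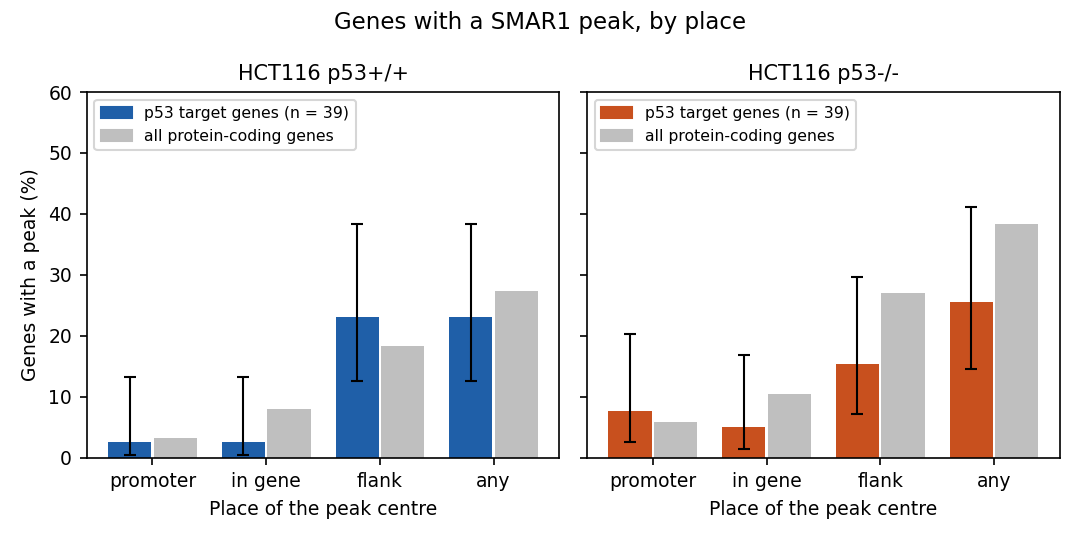
Percentage of genes with a SMAR1 peak (y axis) at the promoter, in the gene, in the flanks within 50 kb, or in any of these places (x axis), in HCT116 p53+/+ (left) and HCT116 p53-/- (right). Coloured bars are the 39 p53 target genes with 95% Wilson intervals and grey bars are all 20163 protein-coding genes; every interval contains the height of its grey bar.

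The numbers of peaks were next set beside those expected if the peaks of a list had been spread evenly over the assembled bases of each chromosome. The windows of the 39 genes covered 4.988 Mb and held 12 HCT116 p53+/+ peaks (exact 95% Poisson interval 6.201 to 20.96), where 9.73 were expected. They also held 12 HCT116 p53-/- peaks, where 14.67 were expected. The ratios of observed to expected were thus 1.233 and 0.8181, and those of all protein-coding genes were 1.001 and 1.022. At promoters, 1 HCT116 p53+/+ peak stood beside 0.4553 expected and 3 HCT116 p53-/- peaks (0.6187 to 8.767) beside 0.6874 expected. Promoters of all protein-coding genes held 2.345 and 2.777 times the even expectation, so that both lists were denser at promoters in general. The p53 target was the nearest protein-coding gene by TSS for 3 of the 12 peaks in HCT116 p53+/+ and for 7 of the 12 in HCT116 p53-/-.

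Of the 39 genes, 15 had a peak within 50 kb in at least one cell line (38.5%, 24.9 to 54.1, beside 49.6% of all protein-coding genes) and 24 had none in either. The interval contained the background share. The genes without a peak included MDM2, the ubiquitin ligase that degrades p53, with its nearest peaks 313.0 kb (HCT116 p53+/+) and 313.9 kb (HCT116 p53-/-) from a TSS. They also included BAX, BBC3 (PUMA), PMAIP1 (NOXA), APAF1, PIDD1, AEN, PERP, PHLDA3, TP53INP1 and TRIAP1 of the apoptotic response, and the death receptor genes FAS, TNFRSF10A and TNFRSF10C. The others were DDB2, PCNA and RRM2B, which act in repair and nucleotide supply, SESN1, SESN2, TIGAR and FDXR, which act in metabolism and redox control, ZMAT3, an RNA-binding protein, and THBS1 and CD82, a secreted and a membrane protein. Over all 39 genes the nearest peak lay a median of 189.9 kb from a TSS in HCT116 p53+/+ and 130.5 kb in HCT116 p53-/-, where all protein-coding genes had 151.9 and 94.07 kb. PERP was the farthest in HCT116 p53+/+ at 977.2 kb, and PLK3 in HCT116 p53-/- at 717.3 kb.

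**Figure D2:**
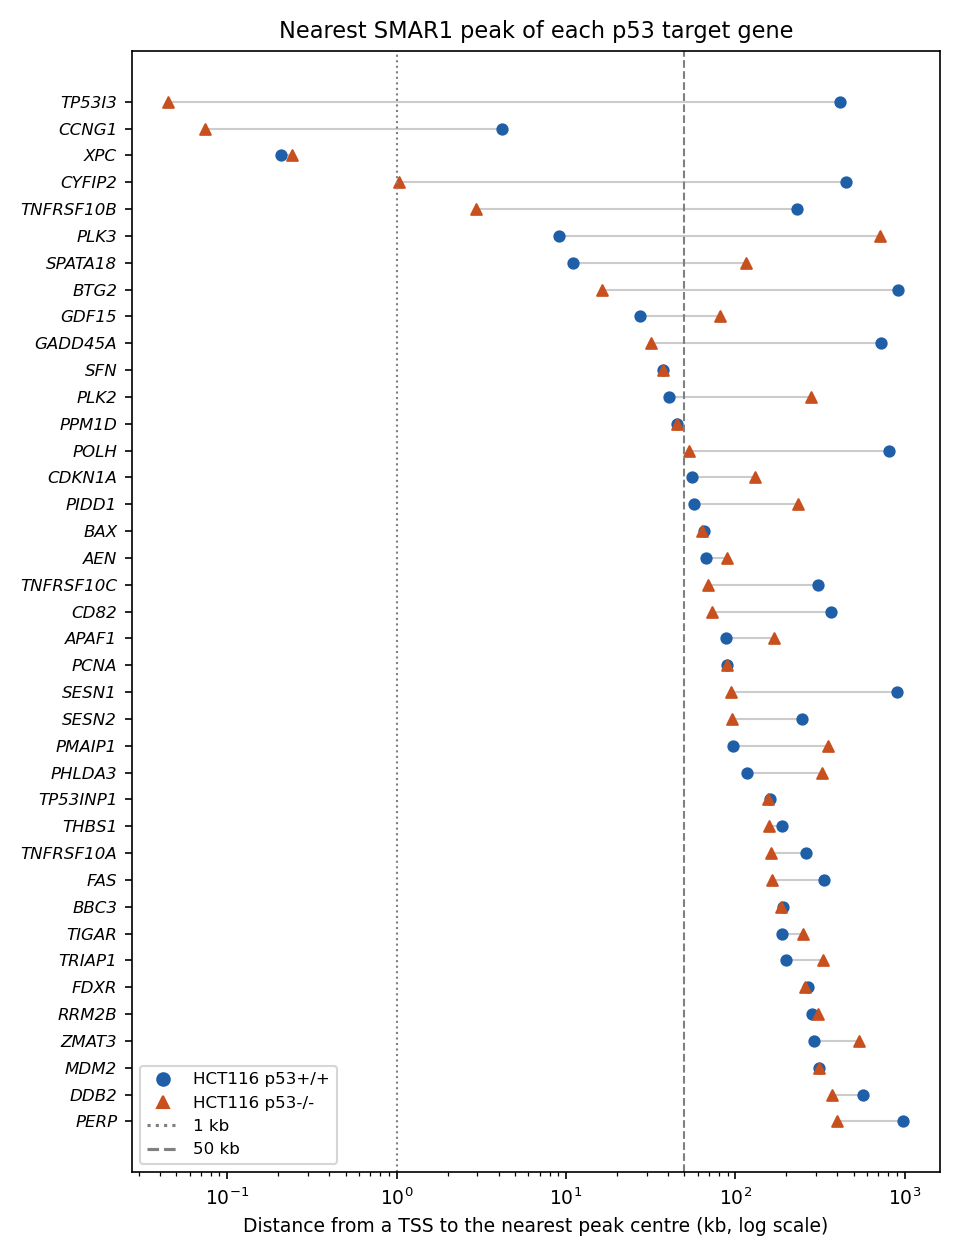
Distance from a TSS to the nearest SMAR1 peak centre (x axis, kb, log scale) for each of the 39 p53 target genes (y axis), with circles for HCT116 p53+/+ and triangles for HCT116 p53-/-. XPC alone has both symbols to the left of the dotted line at 1 kb, and TP53I3 and CCNG1 have only the HCT116 p53-/- symbol there.

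By role, 7 of 7 genes of cell cycle arrest and 2 of 15 genes of apoptosis had a peak within 50 kb in one cell line or the other, where 49.6% of all protein-coding genes did. The numbers were 2 of 5 in DNA repair, 2 of 6 in metabolism and redox control, 1 of 3 in feedback on p53 and 1 of 3 among the secreted and membrane proteins. In HCT116 p53+/+ alone, 5 of the 7 arrest genes and 0 of the 15 apoptosis genes had a peak, beside 27.4% of all protein-coding genes. The count of 0 of 15 allows a share of up to 20%, a rough limit of 3 counts that treats the genes as independent. TNFRSF10A, TNFRSF10B and TNFRSF10C lie close together on chromosome 8, so no depletion can be read from this limit. In HCT116 p53-/- the numbers were 4 of 7 and 2 of 15, beside 38.4% of all protein-coding genes. The position of several of these peaks is uncertain, because the 31 bases at the centre occurred more than once in hg19. Such peaks were the only ones of CDKN1A, PLK2 and PLK3 in HCT116 p53+/+ and of GADD45A in HCT116 p53-/-. Peaks of this kind were then left out, a choice made after the data were seen. A peak in either cell line remained at 3 of 7 genes of arrest and 2 of 15 of apoptosis. By cell line, the arrest genes numbered 2 of 7 in HCT116 p53+/+ and 3 of 7 in HCT116 p53-/-. The share of all protein-coding genes was not computed without such peaks. Of the arrest genes, only CCNG1 had a peak at its own promoter. The peaks near CDKN1A, SFN, PLK2 and PLK3 lay closer to the TSS of another protein-coding gene. The groups of genes by role are small, and the difference between them was not tested.

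Among the repair genes, XPC, which recognises distorted DNA in global genome nucleotide excision repair, had the strongest peaks of all 39 genes. It lies on the minus strand of chromosome 3 from 14186647 to 14220121. Its HCT116 p53+/+ peak, chr3:14220114-14220545, was 432 bp long with a score of 384.01, and 99.49% of the list scored no higher. Its HCT116 p53-/- peak, chr3:14220113-14220611, was 499 bp long with a score of 1034.66, and 99.23% of that list scored no higher. The centres lay 208 and 241 bp upstream of the nearest XPC TSS, but only 12 and 45 bp from that of LSM3, a gene of RNA splicing that starts from the same region in the other direction. The peaks overlapped each other and could not be assigned to XPC or to LSM3. The CTCGCGAG core printed above lay at the centre of the HCT116 p53+/+ peak (0 bp away) and 33 bp from that of the HCT116 p53-/- peak.

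A further HCT116 p53+/+ peak lay 43.5 kb upstream of XPC, with a score of 52.63 and a T(C/G) run of 24 bp. POLH, the translesion polymerase that copies past ultraviolet damage, had 1 HCT116 p53-/- peak 8.991 kb beyond its 3′ end (chr6:43597143-43597359, score 115.6). That peak was centred 26 bp from the TSS of MAD2L1BP, a gene of the spindle checkpoint. The nearest HCT116 p53+/+ peak to POLH was 811.2 kb away.

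In the cell cycle group only CCNG1 had a peak at its own promoter. CCNG1 encodes cyclin G1 and lies on the plus strand of chromosome 5 from 162864575 to 162873157. In HCT116 p53-/- its promoter peak, chr5:162864313-162864690, was 378 bp long with a score of 453.03, above 97.18% of its list or level with it, and was centred 74 bp upstream of the TSS. The CTCGCGAG core in it lay 52 bp from its centre and 22 bp upstream of the TSS. No HCT116 p53+/+ peak overlapped it. The nearest HCT116 p53+/+ peak was the short TG repeat printed above, 4.175 kb upstream, with a score of 59.29 that placed it at 29.27% of its list. CCNG1 thus counted as a gene with a peak in both cell lines, though by different peaks.

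SFN, which encodes 14-3-3σ and holds cells in G2, had flanking peaks in both cell lines 35.94 to 36.14 kb beyond its 3′ end. They were centred within 126 bp of the TSS of GPATCH3. The HCT116 p53+/+ peaks there had scores of 296.84 (chr1:27226751-27227027) and 50.48 (chr1:27227044-27227124), and both overlapped the single HCT116 p53-/- peak with a score of 582.3 (chr1:27226731-27227220). This locus was chosen after its values were seen, because it was shared. The CTCGCGAG core was 82 bp from the centre of the longer HCT116 p53+/+ peak and 4 bp from that of the HCT116 p53-/- peak.

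The other genes of arrest had flanking peaks in a single cell line. PLK3, a stress-responsive polo-like kinase, had an HCT116 p53+/+ peak 9.143 kb upstream (score 60.85, run of 32 bp), which lay 3064 bp from the TSS of BEST4. GADD45A, a growth arrest gene that responds to DNA damage, had HCT116 p53-/- peaks 31.66 kb upstream (score 189.09, run of 40 bp) and 47.7 kb upstream (score 60.82, run of 28 bp). The former scored above 94.01% of its list or level with it, the highest rank among the peaks of the 39 genes that were away from any protein-coding TSS. Its central 31 bases were found at 49 positions of hg19, so that its place near GADD45A is uncertain. Those of the PLK3 peak and the outer GADD45A peak also occurred more than once. BTG2, an antiproliferative gene, had an HCT116 p53-/- peak 12.24 kb beyond its 3′ end (chr1:203290953-203290986, score 96.56), and its longest run was 4 bp.

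CDKN1A, which encodes the cyclin-dependent kinase inhibitor p21, had no peak at its promoter or in the gene in either cell line. An HCT116 p53+/+ peak lay 47.02 kb beyond its 3′ end, with a score of 59.68 that placed it at 30.15% of its list. It consisted largely of a TC run of 58 bp, and its nearest protein-coding TSS belonged to CPNE5. Its central 31 bases were found at 1000 or more positions of hg19, so that its place near CDKN1A is uncertain. The nearest HCT116 p53-/- peak was 130.5 kb from a TSS of CDKN1A. PLK2, another polo-like kinase, had an HCT116 p53+/+ peak 40.54 kb upstream with a score of 66.02. CDKN1A, PLK2, the outer GADD45A peak and the outer XPC peak were also named after their values were seen.

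**Figure D3:**
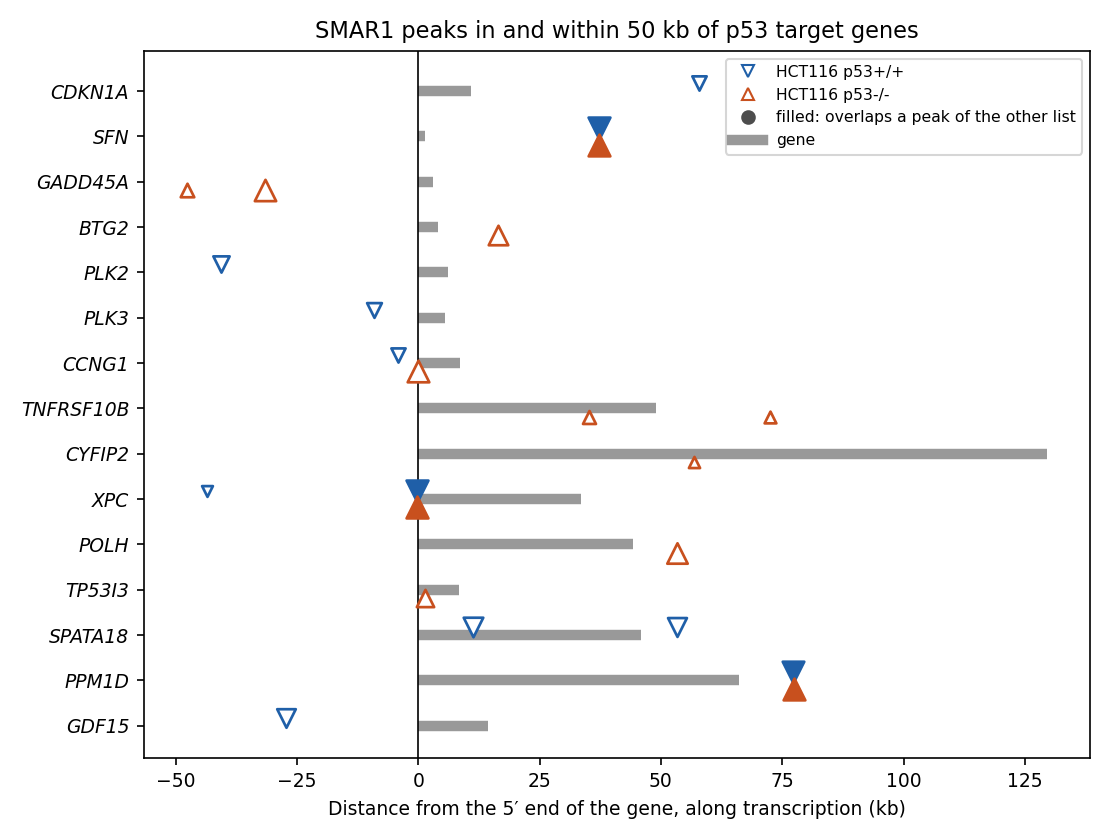
Positions of the 24 SMAR1 peaks at the 15 p53 target genes that had one, as distance from the 5′ end along transcription (x axis, kb), with grey bars for the genes. Downward triangles are HCT116 p53+/+ and upward triangles HCT116 p53-/- peaks, symbols grow with the rank of the score in its list, and the filled symbols at SFN, XPC and PPM1D are peaks that overlap one of the other list.

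Of the genes of apoptosis, TNFRSF10B and CYFIP2 had peaks, both in HCT116 p53-/- and both with low scores. TNFRSF10B encodes the TRAIL death receptor DR5 and lies on the minus strand of chromosome 8 from 22877646 to 22926544. Its intragenic peak from 22891298 to 22891379 had a score of 58.84, fell in a first intron and was centred 2953 bp upstream of the nearest annotated TSS within the gene. A flanking peak from 22853997 to 22854089 (score 55.72), 23.6 kb beyond the 3′ end, held a T(C/G) run of 78 bp and lay 243 bp from the TSS of RHOBTB2. The nearest HCT116 p53+/+ peak to TNFRSF10B was 231.4 kb from a TSS.

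CYFIP2, a subunit of the WAVE actin-regulatory complex, held an HCT116 p53-/- peak in an intron, chr5:156749845-156749943, with a score of 54.18. Only 9.48% of the list scored no higher. The peak was centred 1035 bp upstream of an internal TSS, just outside the limit of 1 kb for a promoter peak. Neither gene kept its intragenic peak when the HCT116 p53-/- list was reduced to its highest-scoring peaks, as many as in the HCT116 p53+/+ list, where 0 of 39 genes had one. The nearest HCT116 p53+/+ peak to CYFIP2 was 453.1 kb away.

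In the group of metabolism and redox control, TP53I3, a quinone oxidoreductase, had its HCT116 p53-/- peak at chr2:24307167-24307315 in a 5′UTR. The score of 76.09 placed it at 54.23% of the list, in the middle of the scores. It was centred 45 bp from an annotated TSS, and when only the TSS at the 5′ end of each gene was used TP53I3 no longer counted, leaving 2 of 39 genes with a promoter peak in HCT116 p53-/-. The nearest HCT116 p53+/+ peak to TP53I3 was 413.4 kb away. SPATA18, a gene of mitochondrial quality control, had 2 HCT116 p53+/+ peaks. One lay in a first intron 10.96 kb downstream of the nearest TSS with a score of 88.78, and the other 7.339 kb beyond the 3′ end with a score of 80.98. Both held a T(C/G) run, of 22 and 24 bp. The nearest HCT116 p53-/- peak to SPATA18 was 115.5 kb from a TSS.

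PPM1D, the phosphatase WIP1 that reverses p53 activation, was the only gene of the feedback group with a peak. It had shared peaks 11.2 kb (HCT116 p53+/+, chr17:58754691-58754981, score 150.73) and 11.26 kb (HCT116 p53-/-, chr17:58754661-58755150, score 630.74) beyond its 3′ end. Their centres were 22 and 91 bp from the TSS of BCAS3, and they scored at 96.43% and 98.09% of their lists. GDF15, a secreted stress cytokine, had an HCT116 p53+/+ peak 27.29 kb upstream (score 77.99) with a T(C/G) run of 18 bp.

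Length and score differed with the place of the 24 peaks, with some overlap. Those within 1 kb of the TSS of any protein-coding gene were long, with a median of 284 bp in HCT116 p53+/+ (4 peaks) and 378 bp in HCT116 p53-/- (7 peaks), and their median scores were 223.78 and 453.03. Those elsewhere were short, with medians of 47 bp (8 peaks) and 64 bp (5 peaks), and median scores of 63.435 and 60.82. In HCT116 p53-/- the shortest peak near a TSS had 93 bp and the longest elsewhere 99 bp, and scores near a TSS began at 55.72 while those elsewhere reached 189.09. In the lists as a whole, peaks near a protein-coding TSS had median lengths of 107.5 and 171 bp, and other peaks 57 and 56 bp, so that the same order held with a smaller gap.

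Overlap between the lists followed the same division. All 4 HCT116 p53+/+ peaks near a TSS overlapped an HCT116 p53-/- peak, and 3 of the 7 HCT116 p53-/- peaks did. None of the 8 and 5 peaks elsewhere was shared, which allows shares of up to 37.5% and 60%, a rough limit of 3 counts. In the whole lists 60.9% and 31.4% of the peaks near a protein-coding TSS and 15.4% and 10.9% of the others were shared. The shared loci were the promoters of LSM3 and XPC, of GPATCH3 near SFN and of BCAS3 near PPM1D.

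**Figure D4:**
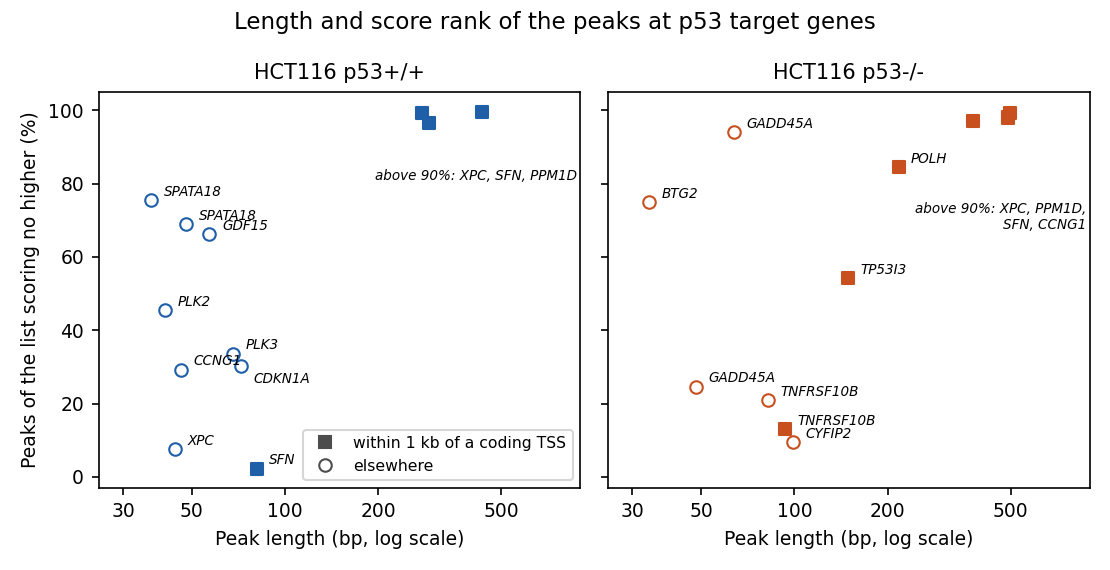
Length (x axis, bp, log scale) of each of the 24 peaks and the percentage of its own list that scored no higher (y axis), in HCT116 p53+/+ (left) and HCT116 p53-/- (right). Filled squares are peaks within 1 kb of a protein-coding TSS and open circles the others; the squares at XPC, PPM1D, CCNG1 and the longer SFN peak sit at the upper right, and the squares of TNFRSF10B and the shorter SFN peak rank as low as the CYFIP2 and XPC circles.

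T(C/G) runs that reached 12 bp were present in 8 of 12 HCT116 p53+/+ peaks (66.7%, 39.1 to 86.2), where the whole list had 59.4%. In HCT116 p53-/- they were found in 4 of the 12 peaks (33.3%, 13.8 to 60.9), where the whole list had 76.0%. Near a protein-coding TSS lay 4 of 12 peaks in HCT116 p53+/+ and 7 of 12 in HCT116 p53-/-, and over the windows of all protein-coding genes 608 of 3689 and 1048 of 5544. Away from such TSSs, the run was present in 8 of 8 HCT116 p53+/+ and 3 of 5 peaks in HCT116 p53-/-, beside 63.4% and 83.1% in the lists. Near them it was present in 0 of 4 and 1 of 7, beside 26.3% and 27.3%. The central 31 bases occurred more than once in hg19 for 4 peaks of HCT116 p53+/+ (CDKN1A, PLK2, PLK3 and the outer XPC peak) and 3 of HCT116 p53-/- (both GADD45A peaks and the TNFRSF10B flank).

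The CTCGCGAG core was present in 2 of 12 peaks (HCT116 p53+/+) and 3 of 12 peaks (HCT116 p53-/-), beside 2.25% and 2.63% of the lists. It was a feature of peaks near a protein-coding TSS in general, where 20.1% (HCT116 p53+/+) and 19.3% (HCT116 p53-/-) held it, against 0.118% and 0.182% of the other peaks. In the lists, the core lay a median of 25 and 27 bp from the centre of the peaks that held it. Of the 39 p53 target genes, CCNG1, TRIAP1 and XPC held the core within 1 kb of the 5′ end (7.69%), as did 2.78% of all protein-coding genes. TRIAP1, an inhibitor of apoptosis, had it 580 bp upstream of its TSS and no peak within 50 kb. Of all protein-coding genes with the core there, 27.1% had a promoter peak in HCT116 p53+/+ and 41.4% in HCT116 p53-/-. This search was added after the peaks had been seen.

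The binding consensus of p53 was searched as a single 10 bp half-site, 3 purines, a C, a pair of A or T bases, a G and 3 pyrimidines, in each peak with 50 bp on both sides. None of the 12 peaks in either cell line held it, which allows a share of up to 25% in each, a rough limit of 3 counts. The whole lists held it in 2.85% and 3.16% of peaks. At this number of peaks a share such as that of the lists was not detectable. Extending the flanks to 100 bp gave 0 of 12 again in both.

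Other genes of the pathway were listed for comparison. Of 21 regulators of p53, 6 had a peak within 50 kb in HCT116 p53+/+ (28.6%, beside 27.4% of all protein-coding genes) and 10 in HCT116 p53-/- (47.6%, beside 38.4%). Of 22 cell cycle genes that are repressed through p53, 4 (18.2%) and 9 (40.9%) had one. In this last group CDC20, an activator of the anaphase-promoting complex, and BUB1B, a spindle checkpoint kinase, had promoter peaks in both cell lines. These were 2 of 22 genes (9.09%, 2.53 to 27.8), beside 2.10% of all protein-coding genes with a promoter peak in both. The interval lay above that share, but it rests on 2 genes and was among many such intervals. The list was chosen with earlier results of these data known, and no test was made. In each single list the count was also 2 of 22, with the same interval, which contained the shares of all protein-coding genes, 3.21% and 5.80%. The scores of CDC20 and BUB1B were 135.83 and 102.57 in HCT116 p53+/+ and 438.86 and 571.66 in HCT116 p53-/-. CCND1, the cyclin D1 gene, had its nearest peaks 247.0 kb (HCT116 p53+/+) and 86.81 kb (HCT116 p53-/-) from a TSS. The study treated it as a known SMAR1 target and detected SMAR1 at its promoter by ChIP with PCR. In each list most protein-coding genes had no peak within 50 kb, and the missing peak was not tested against that assay.

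Among the regulators, promoter peaks were found at CDKN2A in HCT116 p53+/+ and at PRKDC and CREBBP in HCT116 p53-/-. These were 1 of 21 genes (4.76%, 0.846 to 22.7, beside 3.21% of all protein-coding genes) and 2 of 21 (9.52%, 2.65 to 28.9, beside 5.80%). Both intervals contained the background share. The CDKN2A peak had a score of 61.12 and lay 574 bp downstream of a TSS of this gene, which encodes p16 and ARF. CREBBP, a p53 acetyltransferase, had a peak 902 bp downstream of a TSS (score 69.53), and the peak at PRKDC, which encodes the catalytic subunit of DNA-PK, had a score of 60.81 and was centred on a TSS of MCM4.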

How the data were processed

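ChIP-seq peaks of 1 anti-SMAR1 library from each of 2 cell lines were used. Per the labels and the study's methods, reads were trimmed with cutadapt 1.2.1, aligned to hg19 with Bowtie2 2.2.1 and called with MACS 1.4.2, and the authors filtered peaks on fold enrichment. The score in the deposited peak lists is the log10 of the p-value multiplied by -10. IgG immunoprecipitations were made as controls, but the sources used here do not say whether MACS was given them. Starts were converted to 1-based positions. Genes were those of GENCODE 44 on hg19. Even expectations summed, over chromosomes, the peaks times the share of assembled bases in the windows, with overlaps between peaks counted from 1 bp. Functions were tested on simulated data. Every target gene with a promoter or intragenic peak, the 10 flanking peaks nearest to a target and genes of the comparison lists with a promoter peak were named, except for items that are not reported here. Members and lists were chosen with earlier results of these data known. Intervals cover counting error only. Python 3.11.15, numpy 2.4.6, scipy 1.17.1, pysam 0.24.0 and matplotlib 3.10.9 were used.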

Additional observations from a re-analysis of the deposited data

How the results depend on the processing

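Of 71 alternative values for 16 results, 50 were within 1.5 times the count reported and 21 were not. Counts of genes and peaks followed the width of the flanks. With 20 kb in place of 50 kb, 4 (HCT116 p53+/+) and 3 (HCT116 p53-/-) genes had a flanking peak, 5 genes had any peak in HCT116 p53+/+, and 6 HCT116 p53+/+ peaks were left. With 100 kb, 15 and 15 genes had a flanking peak, 15 and 19 any peak, and the peaks numbered 20 and 28. Without the peaks below the median score of each list, 4 genes had a flanking peak, 5 any peak and 6 peaks were left in HCT116 p53+/+, and 0 genes had an intragenic peak in HCT116 p53-/-. The latter was also 0 with the HCT116 p53-/- list reduced to the size of the other, and 1 with the nearest edge of a peak in place of its centre. Within 5 kb of a TSS, 2 and 5 genes had a promoter peak. When a peak was counted only if its nearest protein-coding gene was a p53 target, 3 and 7 peaks were left. With a minimum run of 20 bp, 5 HCT116 p53+/+ peaks held a T(C/G) repeat. With only peaks whose central 31 bases occur once in hg19, chosen after seeing the data, 6 and 9 genes had any peak, from 8 and 9 peaks. Why the counts moved was not tested. No paired analysis was possible because each cell line had 1 library and the labels give no replicate numbers. The single libraries, peak lists without read numbers and the 12 peaks per cell line set the limits. A gene without a peak may have binding below the score of 50 at which the lists begin, or binding removed by the authors' filter on fold enrichment. The effects of p53 status, cell line and library cannot be told apart.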
